A study of Drosophila melanogaster with 17 samples.

Results

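The part of the sugar response that depends on ChREBP was measured in larval fat body as an interaction between diet and genotype. For each gene it is the effect of high sugar in ChREBP knockdown fat body minus the effect of high sugar in wild-type fat body, on the scale log2(FPKM + 1). An interaction above 0 (here called higher) means that high sugar raised the gene more, or lowered it less, in knockdown than in wild type, and an interaction below 0 (lower) means the reverse. It was computed from 11 of the 17 libraries of the series: 2 of knockdown larvae on high sugar, 3 of knockdown larvae on the control diet, 3 of wild-type larvae on high sugar and 3 of wild-type larvae on the control diet. These 11 share one barcode layout, with 1 barcode for each group. The other 6 wild-type libraries, replicates 4 to 6 on each diet, had a barcode each and served as a second measurement of the wild-type part. All libraries came from fat bodies of female Drosophila melanogaster larvae at the wandering stage of the third instar, reared from hatching on semi-defined food with 0.7 M sucrose (high sugar) or 0.15 M sucrose (control diet). Knockdown larvae carried UAS-ChREBPi(52606) together with cgGAL4 and UAS-Dcr2, and wild-type larvae (VDRC w1118) carried cgGAL4 and UAS-Dcr2 without a hairpin. cgGAL4 is a driver active in fat body and blood cells, and UAS-Dcr2 adds Dicer-2 to strengthen RNA interference. One hairpin line was used and no control hairpin, so a general effect of expressing a hairpin and the loss of ChREBP cannot be told apart.

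ChREBP, in flies called Mondo or Mio and listed in the matrix as dmondo, is a transcription factor that becomes active when glucose enters the cell and is phosphorylated. It binds DNA as a dimer with Mlx, called bigmax in flies, and in mammalian liver it turns on genes of glycolysis and fat synthesis. The fly fat body stores fat and glycogen, secretes the proteins of the blood and does much of the work of both liver and adipose tissue. In fly larvae, Mondo and bigmax act through further transcription factors, among them cabut (cbt) and sugarbabe (sug), and are needed to tolerate a sugar-rich diet.

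The 2 knockdown libraries on high sugar stood apart from the other 9. Over the 2488 genes tested, those averaging 1 FPKM or more across the 11 libraries, they correlated with libraries of other groups at r = 0.725 to 0.803, whereas libraries of the other 3 groups correlated across groups at 0.874 to 0.952. Within groups r was 0.930 to 0.967. Both knockdown high-sugar libraries lay below all 9 others for 778 of the 2488 genes (31.3%) and above all 9 for 686 (27.6%). These shares are the background wherever the pair is said below to lie apart. In the same 2 libraries long transcripts read low relative to the mean of the 11 libraries. Log2 values, as deviations from each gene's mean over the 11, changed by -0.372 and -0.399 per doubling of transcript length. In the other 9 the change was -0.027 to 0.169. Because each group has its own barcode and the sequencing runs are not given in the sources used here, group, barcode and any shared handling cannot be told apart. Every interaction below rests on these 2 libraries, so it is given with 2 further fits of the same genes. In one, each library's trend with transcript length was removed. In the other, wild-type replicates 4 to 6 replaced replicates 1 to 3, which changes the wild-type part but not the knockdown part. A gene said to hold in all 3 fits passed the threshold in the same direction in each of them. The fit was also repeated without each library in turn, and where that ended a named gene's call, the number of libraries whose removal did so and the highest adjusted p (limma) over these repeats are given. In each such case the highest came from leaving out 1 of the 2 knockdown high-sugar libraries, with the lone remaining library assumed to vary like the other groups.

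**Figure D1:**
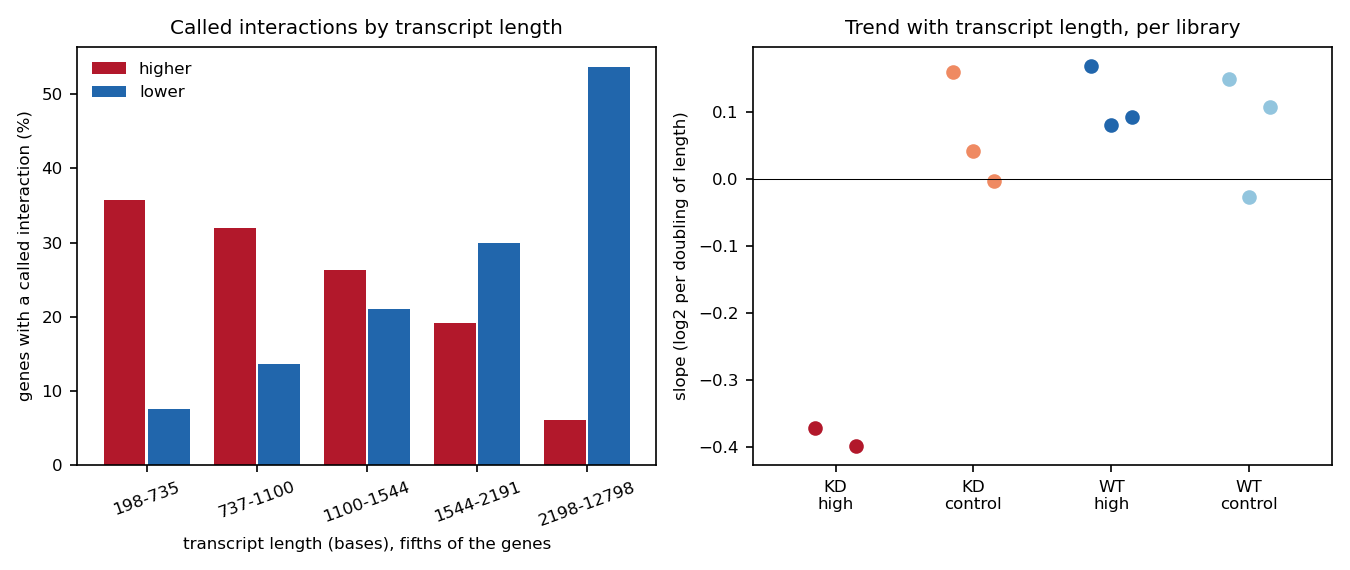
Left, share of genes with a called interaction (higher or lower, in percent) in 5 equal groups of genes from short to long transcripts. Right, slope of each library's log2 values, as deviations from each gene's mean over the 11 libraries, on log2 transcript length, 1 point per library. Higher calls fall from 35.7% to 6.05% of genes and lower calls climb from 7.52% to 53.7% from the shortest to the longest group, and the 2 knockdown high-sugar libraries have the slopes below -0.3.

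High sugar was followed by far more change in knockdown than in wild-type replicates 1 to 3, so that most called interactions came from the knockdown part. In the limma fit with Benjamini-Hochberg adjustment and a threshold of 0.05, the interaction was called for 1213 of 2488 genes (48.8%), 592 of them higher (23.8%) and 621 lower (25.0%). The sugar effect was called for 1547 genes in knockdown (62.2%) and for 78 in wild-type replicates 1 to 3 (3.14%). In wild-type replicates 4 to 6 it was called for 38.8% of genes, so the size of this contrast depends on the wild-type set. Of the 1213 genes, 1144 also had a called sugar effect in knockdown and 39 had one in wild-type replicates 1 to 3. Read across genotypes, the knockdown effect was called for 1515 genes on high sugar (60.9%) and 135 on the control diet (5.43%; 77 to 161 without single libraries). Over all tested genes the sugar effects of the 2 genotypes correlated at r = 0.277, which describes genes and not replicates. Over 1952 genes, the wild-type effects in replicates 1 to 3 and in replicates 4 to 6 correlated at r = 0.155. For the knockdown effect and that of wild-type replicates 4 to 6, r was 0.113. The size of the interaction was at least 2-fold (1 on the log2 scale) for 761 of the called genes and at least 4-fold for 137.

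Length and the choice of wild-type libraries moved this list. In the fifth of genes with the shortest transcripts, 171 interactions were higher and 36 lower, and in the fifth with the longest 29 were higher and 257 lower. With the length trend removed, 966 of 2393 genes were called (40.4%), 514 higher (21.5%) and 452 lower (18.9%), and 791 of the 1173 called genes with a known length remained called in the same direction. With wild-type replicates 4 to 6 in place of 1 to 3, the interaction was called for 1214 of 2360 genes (51.4%), 519 higher and 695 lower. Of the 1116 called genes tested in that fit, 819 were called again in the same direction and 10 in the opposite one. The sugar effect itself was called for 827 of 2131 genes in wild-type replicates 4 to 6 (38.8%), 574 raised and 253 lowered. In all 3 fits the same direction was called for 272 of 2175 genes as higher (12.5%) and for 320 as lower (14.7%). The shares and counts in this paragraph and the one before are the background for every count of genes below.

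**Figure D2:**
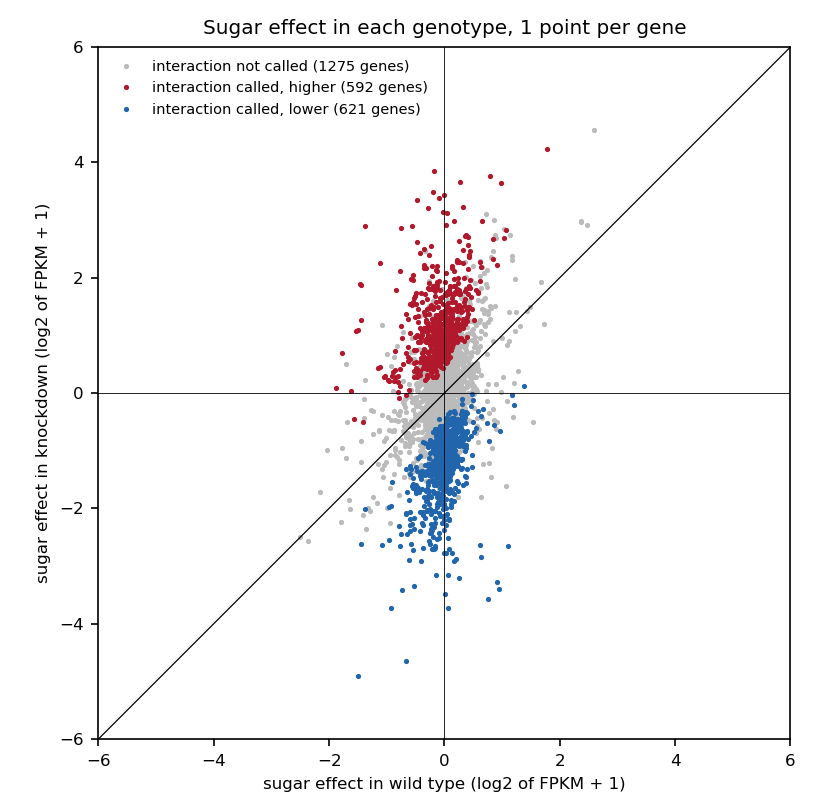
Sugar effect in knockdown (vertical axis) against sugar effect in wild-type replicates 1 to 3 (horizontal axis), both as log2 of FPKM + 1, high sugar minus control diet, 1 point per tested gene. The 592 genes with a called higher interaction lie above the diagonal and the 621 with a called lower one below it, and the cloud is taller than it is wide: the standard deviation over genes was 1.13 in knockdown and 0.41 in wild type.

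The targeted gene was low on both diets in knockdown. dmondo had 0.286 and 0.187 FPKM in knockdown larvae on high sugar and 0.310, 0.535 and 0.471 FPKM in knockdown larvae on the control diet, against 3.01, 2.78 and 2.41 FPKM in wild-type larvae on high sugar and 1.60, 1.83 and 1.70 FPKM in wild-type larvae on the control diet. All 5 knockdown libraries lay below all 6 wild-type ones. The group mean was 11.6-fold lower in knockdown than in wild type on high sugar and 3.89-fold lower on the control diet. In wild type high sugar raised dmondo by 0.46 ± 0.10 on the log2 scale (± is the SE here and for every log2 difference below; adjusted p = 0.045, limma) and the value in knockdown was -0.22 ± 0.12 (adjusted p = 0.13, limma). The interaction was -0.68 ± 0.16 (adjusted p = 0.0058, limma). With the length trend removed it was 0.27 and was not called (adjusted p = 0.27, limma). The direction of the dmondo interaction thus depended on the processing, and the cause of the difference was not tested. In wild-type replicates 4 to 6 high sugar raised dmondo by 0.56 (adjusted p = 0.0071, limma).

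The partner and the downstream factors were measured at low levels. bigmax, the dimer partner, fell short of the level needed for testing, with 1.3 and 1.63 FPKM in knockdown larvae on high sugar and 0.445 to 0.941 FPKM in knockdown larvae on the control diet, against 0.748 to 1.14 FPKM in wild-type larvae on high sugar and 0.774 to 1.1 FPKM in wild-type larvae on the control diet. Of the 6 genes of this network 3 were tested and 2 had a called lower interaction, dmondo and daw, which encodes the activin-like hormone Dawdle (-0.69 ± 0.22, adjusted p = 0.025, limma). For daw the value was -0.05 with the length trend removed. cbt had 0.182 and 0.158 FPKM in knockdown larvae on high sugar and 0.555 to 0.930 FPKM in knockdown larvae on the control diet, against 1.11 to 2.50 FPKM in wild-type larvae on high sugar and 1.52 to 2.00 FPKM in wild-type larvae on the control diet. Its interaction did not pass the test (-0.58 ± 0.26, adjusted p = 0.092, limma). daw lost its call on leaving out any 1 of 4 libraries (adjusted p up to 0.072, limma).

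**Figure D3:**
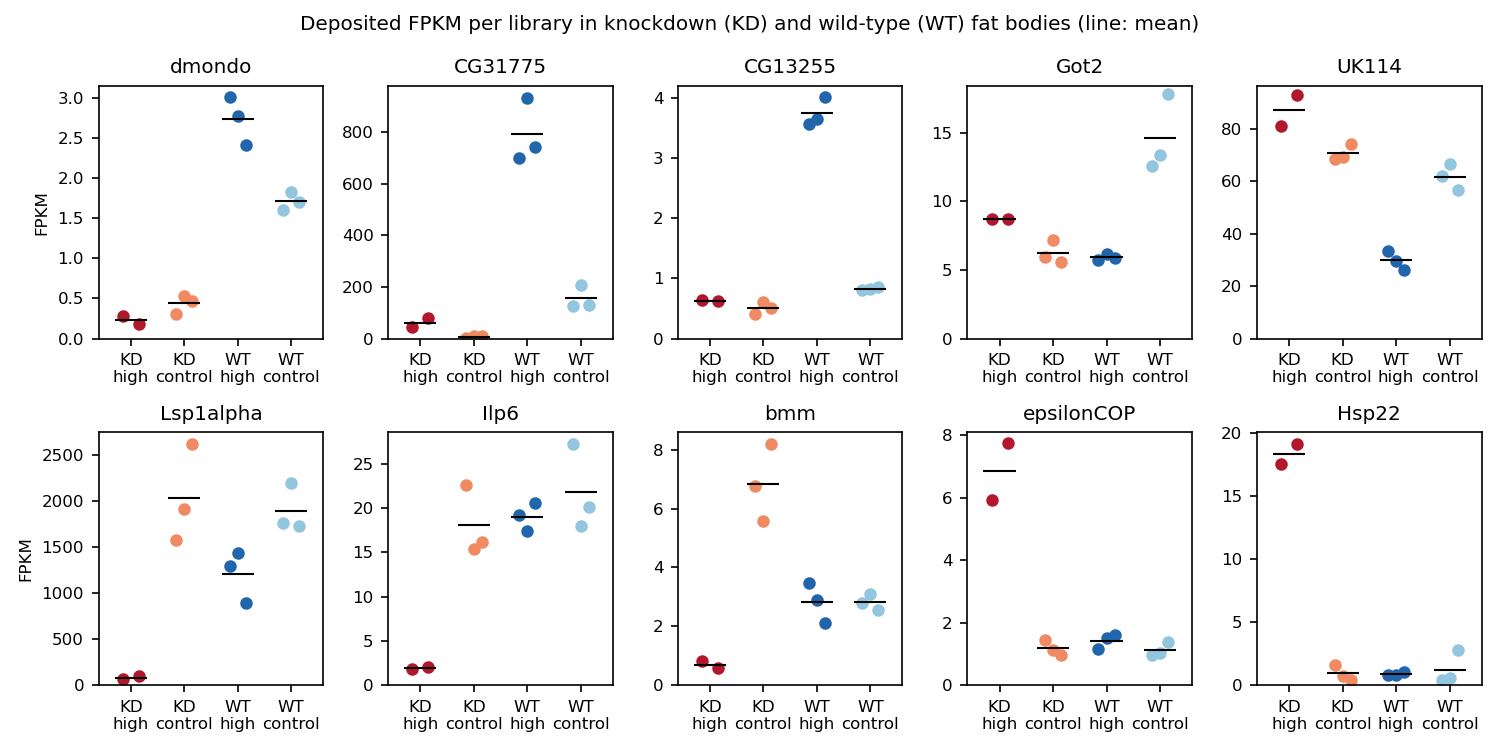
FPKM of 10 genes in each of the 11 libraries, in knockdown (KD) and wild-type (WT) larvae on high sugar and on the control diet, 1 point per library with the group mean as a line; each vertical axis starts at 0. dmondo and CG31775 are lower in knockdown on both diets, CG13255 is high in the wild-type high-sugar libraries, Got2 and UK114 are low in the wild-type high-sugar libraries relative to wild-type control, and in the bottom row the 2 knockdown high-sugar libraries are below (Lsp1alpha, Ilp6, bmm) or above (epsilonCOP, Hsp22) the other 9.

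In wild-type replicates 1 to 3 the level of 78 genes changed with sugar. High sugar raised 21 of them and lowered 57, and without single libraries between 26 and 109 genes were called. The interaction was called for 39, a share close to the 48.8% of all tested genes, with the sign opposite to the wild-type effect for 25 (7 raised and 18 lowered in wild type) and with the same sign for 14. Since the wild-type libraries enter both measures, noise in them favours an opposite sign. The opposite sign was also called with the length trend removed for 18 of the 25. Of the 18 that were tested for sugar in wild-type replicates 4 to 6, 9 had a called effect of the same sign there. In the knockdown, the sugar effect was called in the wild-type direction for 47 of the 78 genes, in the opposite direction for 8 and not called for 23. The median sugar effect of the 21 genes raised in wild type was 1.28 in knockdown against 1.20 in wild type, and that of the 57 lowered genes was -0.92 in knockdown against -0.98 in wild type. These wild-type medians come from the libraries that chose the genes. In wild-type replicates 4 to 6 the medians were 1.95 for the raised and -0.32 for the lowered genes. There 12 of 13 tested rises and 18 of 46 tested falls were called again, and 1 fall was called as a rise.

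Among genes raised by sugar in wild-type replicates 1 to 3, the clearest loss of response was in CG13255. It had 0.644 and 0.620 FPKM in knockdown larvae on high sugar and 0.400, 0.607 and 0.505 FPKM in knockdown larvae on the control diet, against 3.57, 3.66 and 4.02 FPKM in wild-type larvae on high sugar and 0.800, 0.819 and 0.862 FPKM in wild-type larvae on the control diet. Thus the wild-type high-sugar libraries lay above all others, and the knockdown groups differed by little. The interaction was -1.26 ± 0.14 (adjusted p = 0.00016, limma) and -1.40 with the length trend removed (adjusted p = 0.00016, limma). In the fit with wild-type replicates 4 to 6 the gene was not tested, because its mean over the libraries of that fit was below 1 FPKM. Its interaction therefore has no second measurement. CG3036 had 2.04 and 1.97 FPKM in knockdown larvae on high sugar and 2.31 to 2.63 FPKM in knockdown larvae on the control diet, against 2.93 to 4.68 FPKM in wild-type larvae on high sugar and 0.729 to 1.3 FPKM in wild-type larvae on the control diet. Its interaction of -1.39 ± 0.24 (adjusted p = 0.0014, limma) held in all 3 fits. So did that of the cytochrome P450 gene Cyp4p1 (-1.61 ± 0.31, adjusted p = 0.0024, limma), which had 1.5 and 1.02 FPKM in knockdown larvae on high sugar and 1.51 to 3.27 FPKM in knockdown larvae on the control diet, against 4.23 to 5.32 FPKM in wild-type larvae on high sugar and 1.51 to 2.28 FPKM in wild-type larvae on the control diet. The remaining genes of this kind were dmondo, CG15553, Cyp310a1 and Acon, which encodes the mitochondrial aconitase of the citric acid cycle. All 7 had a mean below 5 FPKM. CG13255, CG3036, CG15553 and Cyp310a1 lie outside the rule for named genes and were picked with their values in view. Cyp310a1 lost its call on leaving out any 1 of 6 libraries (adjusted p up to 0.087, limma).

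**Figure D4:**
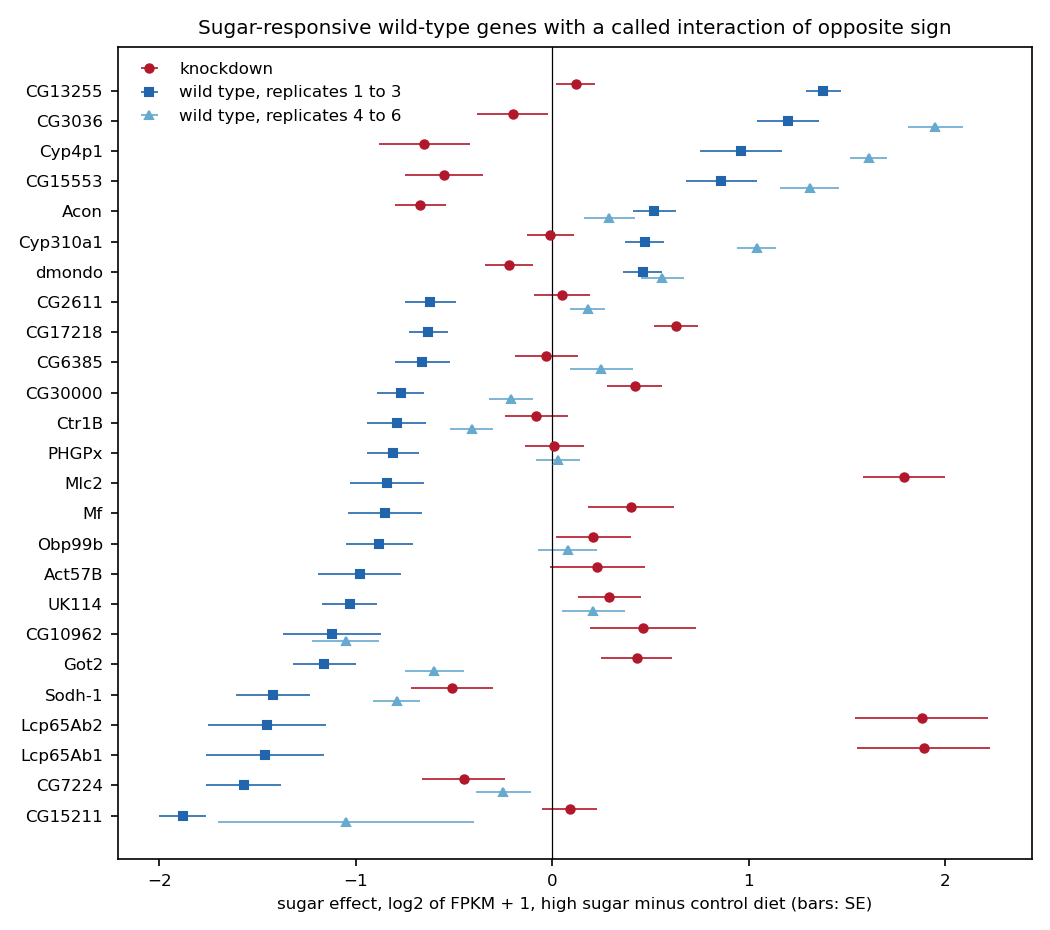
Sugar effect (log2 of FPKM + 1, high sugar minus control diet, with SE) in knockdown, in wild-type replicates 1 to 3 and, where tested, in wild-type replicates 4 to 6, for the 25 genes with a called wild-type effect and a called interaction of opposite sign. The 7 genes raised in wild type sit at or below 0.12 in knockdown, and for UK114, Obp99b, PHGPx and CG7224 the value in wild-type replicates 4 to 6 lies near 0.

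For 11 of the 21 genes raised by sugar in wild type the interaction was not called, among them CG3348 and CG31775, whose wild-type sugar effects were 2.47 and 2.37. CG31775, a gene of unknown role, had 42.7 and 79.1 FPKM in knockdown larvae on high sugar and 3.87, 7.90 and 8.44 FPKM in knockdown larvae on the control diet, against 700, 932 and 741 FPKM in wild-type larvae on high sugar and 127, 208 and 131 FPKM in wild-type larvae on the control diet. Its level was 13.0-fold lower in knockdown on high sugar and 23.1-fold lower on the control diet, yet high sugar raised it in both genotypes, by 2.99 in knockdown and 2.37 in wild type. The interaction was 0.63, with a 95% interval of -0.44 to 1.70 (adjusted p = 0.31, limma). CG42586 nearby gave proportional values, and reads may be split between the 2 genes, so they count as 1 observation of uncertain origin. CG3348 had 5.77 and 10.3 FPKM in knockdown larvae on high sugar and 0.563 FPKM or a listed 0 in knockdown larvae on the control diet, against 17 to 30.6 FPKM in wild-type larvae on high sugar and 3.30 to 4.16 FPKM in wild-type larvae on the control diet. Its interaction was 0.45, with an interval of -0.48 to 1.37. Gpdh, glycerol-3-phosphate dehydrogenase, which makes the backbone of triglycerides, had 2.09 and 3.25 FPKM in knockdown larvae on high sugar and 0.553 to 0.682 FPKM in knockdown larvae on the control diet, against 2.97 to 7.06 FPKM in wild-type larvae on high sugar and 1.17 to 1.83 FPKM in wild-type larvae on the control diet. For Gpdh the interaction was -0.14, with an interval of -0.95 to 0.68, and -1.11 with wild-type replicates 4 to 6 (adjusted p = 0.0012, limma). CG5773 went further: its interaction was higher (1.3 ± 0.29, adjusted p = 0.0052, limma), at a level that was 1.81-fold lower in knockdown on high sugar and 4.90-fold lower on the control diet. With wild-type replicates 4 to 6 its value was -0.15 (adjusted p = 0.68, limma). These 4 genes and CG42586 were likewise picked with their values in view.

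Of the 57 genes lowered by sugar in wild type, 18 had a called higher interaction, 11 a called lower one and 28 none, and the rule named 7 of the 18. Got2, a mitochondrial aspartate aminotransferase, had 8.75 and 8.73 FPKM in knockdown larvae on high sugar and 5.59 to 7.17 FPKM in knockdown larvae on the control diet, against 5.71 to 6.18 FPKM in wild-type larvae on high sugar and 12.6 to 17.8 FPKM in wild-type larvae on the control diet. The wild-type control libraries stood above all others. Its interaction was 1.59 ± 0.24 (adjusted p = 0.00067, limma). CG10962 (1.58 ± 0.37) and CG30000, now GstT1, a glutathione transferase of the theta class (1.19 ± 0.18), had adjusted p of 0.0061 and 0.00083 (limma). Got2, CG10962 and CG30000 held in all 3 fits. UK114 had 81.2 and 93.1 FPKM in knockdown larvae on high sugar and 68.7 to 74.3 FPKM in knockdown larvae on the control diet, against 26.1 to 33.6 FPKM in wild-type larvae on high sugar and 56.8 to 66.5 FPKM in wild-type larvae on the control diet. UK114 (1.33 ± 0.21), CG7224, now Sirup, an assembly factor of succinate dehydrogenase (1.12 ± 0.28), Obp99b, a secreted odorant-binding protein abundant in fat body (1.09 ± 0.25), and PHGPx, a glutathione peroxidase (0.82 ± 0.20), were called here (adjusted p of 0.00092, 0.0092, 0.0056 and 0.0073, limma). With wild-type replicates 4 to 6 the values of these 4 genes lay between -0.21 and 0.13 and none was called.

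Storage proteins and lipoproteins of the fat body were among the genes with the lowest interactions. The larval serum protein Lsp1alpha, an amino acid store, had 65.6 and 95.0 FPKM in knockdown larvae on high sugar and 1580, 1910 and 2620 FPKM in knockdown larvae on the control diet, against 1300, 1440 and 897 FPKM in wild-type larvae on high sugar and 1760, 2200 and 1730 FPKM in wild-type larvae on the control diet. The 2 knockdown high-sugar libraries lay far below all others, and the interaction was -3.98 ± 0.37 (adjusted p = 0.0001, limma). Rfabg, the apolipophorin that carries lipid in the blood (now apolpp), had 7.87 and 9.97 FPKM in knockdown larvae on high sugar and 99.3 to 158 FPKM in knockdown larvae on the control diet, against 90.0 to 161 FPKM in wild-type larvae on high sugar and 105 to 137 FPKM in wild-type larvae on the control diet. Its interaction was -3.79 ± 0.37 (adjusted p = 0.00013, limma) and -2.16 with the length trend removed. Lsp1gamma (-3.45 ± 0.51) and Lsp1beta (-1.99 ± 0.34) were lower too, and all 4 of these genes held in all 3 fits. Of the 9 tested storage proteins and lipoproteins, 6 were called lower, the other 2 being Fbp1, the receptor that takes up storage proteins, and Mtp, the transfer protein that loads lipid onto lipoproteins. Obp99b was the 1 called higher, and 2 were not called. The list median was -1.33, against 0.06 for all tested genes. The storage protein counts were none higher and 4 lower with the length trend removed, and none higher and 8 lower with wild-type replicates 4 to 6. Fbp1 lost its call on leaving out any 1 of 5 libraries (adjusted p up to 0.081, limma).

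The 3 glue genes among the lowest were Sgs1 (-4.33 ± 0.52), Sgs3 (-4.20 ± 0.60) and Sgs4 (-3.48 ± 0.55), which encode proteins of the salivary secretion that fixes the pupa. Sgs3 had 21.4 and 43.6 FPKM in knockdown larvae on high sugar and 194, 300 and 489 FPKM in knockdown larvae on the control diet, against 305, 597 and 675 FPKM in wild-type larvae on high sugar and 234, 265 and 289 FPKM in wild-type larvae on the control diet. Sgs8 went the other way, with 3010 and 2940 FPKM in knockdown larvae on high sugar and 550 to 1100 FPKM in knockdown larvae on the control diet, against 649 to 1240 FPKM in wild-type larvae on high sugar and 550 to 788 FPKM in wild-type larvae on the control diet (interaction 1.33 ± 0.46, adjusted p = 0.036, limma). The other 5 salivary genes were not called. With wild-type replicates 4 to 6 in place of 1 to 3, Sgs3 and Sgs4 each had an interaction of 0.11, and of the 9 salivary genes Sgs1 held in all 3 fits. The salivary gene counts were none higher and 3 lower with the length trend removed, and 5 higher and 1 lower of the 8 tested with wild-type replicates 4 to 6. The median interaction of the salivary list was 1.62 with wild-type replicates 4 to 6, against 0.01 as deposited. The summed level of the salivary genes was 6560 to 6780 FPKM in knockdown larvae on high sugar and 2020 to 4490 FPKM in knockdown larvae on the control diet, against 2630 to 5880 FPKM in wild-type larvae on high sugar and 2110 to 3570 FPKM in wild-type larvae on the control diet. Sgs8 lost its call on leaving out any 1 of 7 libraries (adjusted p up to 0.087, limma).

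The other genes with the lowest interactions had varied roles. Dcr-2, whose product cuts double-stranded RNA and which is also carried as the UAS-Dcr2 transgene, had 3.72 and 3.14 FPKM in knockdown larvae on high sugar and 129, 120 and 146 FPKM in knockdown larvae on the control diet, against 19.7, 19.6 and 17.6 FPKM in wild-type larvae on high sugar and 60.7, 53.9 and 50.3 FPKM in wild-type larvae on the control diet. No 2 groups overlapped. Dcr-2 was thus lower on high sugar in both genotypes, and its interaction of -3.42 ± 0.21 (adjusted p = 2.9e-05, limma) held in all 3 fits. dmondo was lowest in the same libraries in which Dcr-2 was lowest. In the list of transgene and driver genes, Cg25C, the collagen gene whose promoter region gives cgGAL4 its name, had an interaction of -0.12 ± 0.36 (adjusted p = 0.82, limma), which was 1.13 with the length trend removed (adjusted p = 0.033, limma) and -1.06 with wild-type replicates 4 to 6 (adjusted p = 0.033, limma). pr, an enzyme of pteridine synthesis (-3.49 ± 0.56), the cuticle gene Cpr49Ac (-3.21 ± 0.26) and the immune-induced peptide IM3 (-3.27 ± 0.96) also held in all 3 fits. Eig71Ee, an ecdysone-induced gene (-3.74 ± 0.46), and a predicted non-coding transcript listed as noncoding_12767 (-4.34 ± 0.69) were lower here, but with wild-type replicates 4 to 6 their values were -0.32 and -0.77 and neither was called. The call of IM3 was lost without 1 particular library (adjusted p = 0.065, limma).

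The highest interactions included cuticle proteins, stress genes and a detoxification gene. Lcp4 had 43.4 and 99.6 FPKM in knockdown larvae on high sugar and 7.26 to 8.48 FPKM in knockdown larvae on the control diet, against 6.92 to 16.0 FPKM in wild-type larvae on high sugar and 22.2 to 31.1 FPKM in wild-type larvae on the control diet (interaction 4.26 ± 0.51, adjusted p = 0.00026, limma). Both knockdown high-sugar libraries lay above all others. Lcp3 (3.46 ± 0.55) and Lcp1 (2.62 ± 0.71) were higher as well, and all 3 held in all 3 fits. GstD1, a glutathione transferase of the delta class, had 70.3 and 114 FPKM in knockdown larvae on high sugar and 13.3 to 16.8 FPKM in knockdown larvae on the control diet, against 35.1 to 40.2 FPKM in wild-type larvae on high sugar and 44.9 to 55.8 FPKM in wild-type larvae on the control diet. Its interaction of 2.84 ± 0.29 (adjusted p = 0.00014, limma) held in all 3 fits. The same was true of the small heat shock gene Hsp26 (3.49 ± 0.77), of Fst, a gene induced by cold (2.67 ± 0.38), and of CG16762 (2.65 ± 0.34). CoVa, a subunit of cytochrome oxidase (3.61 ± 1.27), varied from 0.148 to 9.02 FPKM among knockdown libraries on the control diet and did not pass the test with the length trend removed. DptB, the antibacterial peptide Diptericin B (2.90 ± 0.92), and CG34227 (3.38 ± 0.64) were not called with wild-type replicates 4 to 6. CG13335 (2.59 ± 0.55) has no known length and so could not be put to all 3 fits, and the same holds for 1 predicted transcript among the 12 highest. The call of Lcp1 was lost without 1 particular library (adjusted p = 0.062, limma). CoVa lost its call on leaving out any 1 of 8 libraries (adjusted p up to 0.12, limma). DptB lost its call on leaving out any 1 of 5 libraries (adjusted p up to 0.087, limma).

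Among genes of fat synthesis and storage 4 of 12 tested interactions were lower and 1 was higher. Of all tested genes 25.0% were lower and 23.8% higher, and a difference from these shares was not tested. Of 5 tested genes of fatty acid synthesis 1 was called lower, HLH106, the fly SREBP that governs lipid synthesis (-0.36 ± 0.14, adjusted p = 0.048, limma), and with the length trend removed its value was 0.55 (adjusted p = 0.014, limma). The fatty acid synthase gene CG3523 had 0.556 and 0.972 FPKM in knockdown larvae on high sugar and 0.522 to 1.23 FPKM in knockdown larvae on the control diet, against 1.67 to 4.28 FPKM in wild-type larvae on high sugar and 1.23 to 3.33 FPKM in wild-type larvae on the control diet; its interaction was -0.52 ± 0.45 (adjusted p = 0.38, limma). ATPCL, which makes cytosolic acetyl-CoA, had -0.48 ± 0.23 (adjusted p = 0.11, limma) and the desaturase desat1 had 0.67 ± 0.55 (adjusted p = 0.34, limma). Among 7 genes of triglyceride synthesis and droplet coats, 3 were called lower and 1 higher. The perilipins that coat lipid droplets were both lower and held in all 3 fits: Lsd-2 with 3.38 and 4.01 FPKM in knockdown larvae on high sugar and 11.2 to 15 FPKM in knockdown larvae on the control diet, against 11.7 to 14.8 FPKM in wild-type larvae on high sugar and 12.9 to 19.4 FPKM in wild-type larvae on the control diet (-1.31 ± 0.27, adjusted p = 0.0035, limma), and Lsd-1 (-0.91 ± 0.33, adjusted p = 0.042, limma). CG5508 (now mino), an acyltransferase of the first step of triglyceride synthesis, was lower (-0.62 ± 0.16) and CG3209 (now Gpat4), named for the same step, was higher (0.54 ± 0.16). The fatty acid synthesis counts were 1 higher and none lower with the length trend removed, and none higher and 2 lower with wild-type replicates 4 to 6. The triglyceride and droplet counts were 1 higher and 2 lower with the length trend removed, and none higher and 6 lower with wild-type replicates 4 to 6. The call of CG3209 was lost without 1 particular library (adjusted p = 0.095, limma). HLH106 lost its call on leaving out any 1 of 10 libraries (adjusted p up to 0.16, limma). Lsd-1 lost its call on leaving out any 1 of 8 libraries (adjusted p up to 0.11, limma).

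In the list for lipolysis and fatty acid oxidation 18 genes were tested, and 6 were called higher and 1 lower. The lower one was bmm, the triglyceride lipase brummer, with 0.822 and 0.563 FPKM in knockdown larvae on high sugar and 5.58 to 8.21 FPKM in knockdown larvae on the control diet, against 2.10 to 3.47 FPKM in wild-type larvae on high sugar and 2.56 to 3.09 FPKM in wild-type larvae on the control diet. bmm was highest in knockdown on the control diet and lowest in knockdown on high sugar, without overlap with any other group, and its interaction of -2.19 ± 0.26 (adjusted p = 0.00024, limma) held in all 3 fits. The higher ones include scu, a hydroxyacyl-CoA dehydrogenase (1.47 ± 0.29), yip2, a thiolase (1.35 ± 0.32), and wal, the alpha subunit of the electron transfer flavoprotein (1.20 ± 0.26). Of these wal held in all 3 fits. With the length trend removed 12 of the 18 were higher, and with wild-type replicates 4 to 6, in which high sugar raised 13 of the 18, 2 were higher and 5 lower.

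Of 10 glycolytic genes 5 were called higher and 1 lower, with a median of 0.62. Tpi (triose phosphate isomerase) had 5.38 and 7.97 FPKM in knockdown larvae on high sugar and 2.23 to 3.32 FPKM in knockdown larvae on the control diet, against 2.73 to 3.92 FPKM in wild-type larvae on high sugar and 4.09 to 6.31 FPKM in wild-type larvae on the control diet (1.46 ± 0.30, adjusted p = 0.0032, limma). Gapdh1, a glyceraldehyde-3-phosphate dehydrogenase (1.28 ± 0.35), Eno, the enolase (1.0 ± 0.29), and Pgk, phosphoglycerate kinase (0.87 ± 0.19), followed. High sugar raised 8 of the 10 genes in wild-type replicates 4 to 6, and with those libraries as the wild-type part 1 of the 10 was higher and 4 were lower, with a median of -0.14. Pgk held in all 3 fits as higher, and Aldolase as lower (-0.88 ± 0.27). For the pentose phosphate pathway and other makers of NADPH, 3 of 6 were higher: Tal, the transaldolase (1.95 ± 0.26), Pgd, phosphogluconate dehydrogenase (1.21 ± 0.24), and Men, the malic enzyme (1.41 ± 0.37). Tal and Pgd held in all 3 fits. The pentose phosphate counts were 3 higher and none lower with the length trend removed, and 2 higher and 1 lower with wild-type replicates 4 to 6. Tal had 13.8 and 19.7 FPKM in knockdown larvae on high sugar and 2.36 to 3.61 FPKM in knockdown larvae on the control diet, against 3.77 to 4.80 FPKM in wild-type larvae on high sugar and 3.35 to 4.07 FPKM in wild-type larvae on the control diet, so the 2 knockdown high-sugar libraries were above all others. The calls of Gapdh1, Eno and Men were each lost without 1 particular library (adjusted p of 0.061, 0.084 and 0.058, limma). Aldolase lost its call on leaving out any 1 of 2 libraries (adjusted p up to 0.11, limma).

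Other carbohydrate genes were mixed. Of 4 genes of gluconeogenesis 1, fbp (fructose bisphosphatase), was higher (0.89 ± 0.33, adjusted p = 0.045, limma). Pepck, which makes phosphoenolpyruvate, had -0.69 ± 0.28 (adjusted p = 0.068, limma), CG10924, its second copy, -0.47 ± 0.35 and CG1516, pyruvate carboxylase, -0.18 ± 0.26, and neither of the last pair was called. The gluconeogenesis counts were 1 higher and none lower with the length trend removed, and none higher and 2 lower with wild-type replicates 4 to 6. Of 9 genes of trehalose, glycogen and sugar transport 3 were lower: Pgm, phosphoglucomutase (-1.08 ± 0.28), UGP, which makes UDP-glucose for glycogen and trehalose (-1.0 ± 0.23), and Treh, the trehalase (-0.80 ± 0.14). Pgm and UGP held in all 3 fits, and Treh had -0.13 with the length trend removed. The trehalose and glycogen counts were 3 higher and 2 lower of 8 with the length trend removed, and none higher and 6 lower of the 8 tested with wild-type replicates 4 to 6. In the citric acid cycle 2 of 12 were higher and 2 lower. CG5028, a subunit of NAD-dependent isocitrate dehydrogenase, had 0.258 and 0.339 FPKM in knockdown larvae on high sugar and 4.36 to 5.33 FPKM in knockdown larvae on the control diet, against 4.00 to 5.34 FPKM in wild-type larvae on high sugar and 4.04 to 4.58 FPKM in wild-type larvae on the control diet (-2.27 ± 0.19, adjusted p = 7.2e-05, limma). It held in all 3 fits, as did the fumarase gene l(1)G0255 (1.39 ± 0.24). Scsalpha, a subunit of succinyl-CoA synthetase (1.51 ± 0.32), was higher. Acon was lower (-1.19 ± 0.17) but was not called lower with the length trend removed. The citric acid cycle counts were 4 higher and 1 lower with the length trend removed, and 2 higher and 3 lower of the 11 tested with wild-type replicates 4 to 6. Of 18 genes of ATP synthase and cytochrome oxidase 4 were higher and none lower, a share of higher calls close to that of all genes. ATPsyn-gamma (1.13 ± 0.30) held in all 3 fits. The ATP synthase and oxidase counts were 2 higher and 1 lower with the length trend removed, and 2 higher and 4 lower with wild-type replicates 4 to 6. The call of ATPsyn-gamma was lost without 1 particular library (adjusted p = 0.057, limma). fbp lost its call on leaving out any 1 of 8 libraries (adjusted p up to 0.19, limma).

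Of 8 tested genes of secreted signals and the insulin pathway 5 were lower and 1 higher. Ilp6, the insulin-like peptide of the fat body, had 1.85 and 2.01 FPKM in knockdown larvae on high sugar and 15.4, 16.2 and 22.6 FPKM in knockdown larvae on the control diet, against 17.4, 19.2 and 20.6 FPKM in wild-type larvae on high sugar and 18.0, 20.1 and 27.3 FPKM in wild-type larvae on the control diet. Its interaction was -2.52 ± 0.29 (adjusted p = 0.00022, limma). Thor, the translation inhibitor 4E-BP, had 21.4 and 16.7 FPKM in knockdown larvae on high sugar and 90.0 to 141 FPKM in knockdown larvae on the control diet, against 202 to 220 FPKM in wild-type larvae on high sugar and 234 to 271 FPKM in wild-type larvae on the control diet (-2.36 ± 0.28, adjusted p = 0.00026, limma). egr, the fly TNF Eiger, was lower (-1.87 ± 0.24), as was ImpL2, which binds insulin-like peptides (-1.01 ± 0.28). Ilp6, Thor, egr and ImpL2 held in all 3 fits. CG14375, the nutrient-responsive peptide hormone CCHamide-2, was higher (1.15 ± 0.31, adjusted p = 0.013, limma), but with wild-type replicates 4 to 6 its value was 0.20. The signal gene counts were 1 higher and 4 lower with the length trend removed, and none higher and 4 lower of the 7 tested with wild-type replicates 4 to 6. Of 5 genes of the ecdysone response 4 were lower, among them the receptor EcR (-0.72 ± 0.20), br (-1.29 ± 0.39) and Eip74EF (-0.79 ± 0.24). These are long transcripts, and none of the 4 was called with the length trend removed. Eip71CD was higher (1.39 ± 0.29) and held in all 3 fits. The ecdysone counts were 1 higher and none lower with the length trend removed, and 1 higher and 1 lower of the 4 tested with wild-type replicates 4 to 6. The calls of ImpL2, CG14375, br and Eip74EF were each lost without 1 particular library (adjusted p of 0.057, 0.052, 0.079 and 0.065, limma).

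Of 24 tested immune genes, 3 were higher (12.5%) and 4 lower (16.7%), against 23.8% and 25.0% of all tested genes. In all 3 fits 14.7% of all genes were lower, and the 4 lower immune genes held in all 3. They were IM3, the antifungal peptide drosomycin Drs (-2.79 ± 0.44), TepII, a thioester protein (-2.77 ± 0.26), and Rel, the NF-kappaB factor of the Imd pathway (-1.75 ± 0.35). Drs had 17.3 and 13.3 FPKM in knockdown larvae on high sugar and 90.8 to 115 FPKM in knockdown larvae on the control diet, against 51.0 to 130 FPKM in wild-type larvae on high sugar and 66.1 to 91.1 FPKM in wild-type larvae on the control diet. The knockdown high-sugar pair lay below all others. The immune gene counts were 1 higher and 5 lower with the length trend removed, and none higher and 8 lower with wild-type replicates 4 to 6.

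Of 14 heat shock genes 4 were higher and none lower. Hsp22, a mitochondrial small heat shock protein, had 17.5 and 19.1 FPKM in knockdown larvae on high sugar and 0.394 to 1.62 FPKM in knockdown larvae on the control diet, against 0.798 to 1.07 FPKM in wild-type larvae on high sugar and 0.365 to 2.74 FPKM in wild-type larvae on the control diet (3.47 ± 0.53, adjusted p = 0.00092, limma). Hsp22, Hsp26 and Hsp68 (3.10 ± 0.57) held in all 3 fits, and DnaJ-1, a co-chaperone, was called in this fit (1.04 ± 0.35). The heat shock counts were 9 higher and none lower with the length trend removed, and 6 higher and none lower with wild-type replicates 4 to 6. Of 13 genes of the endoplasmic reticulum chaperones and translocon, 4 were higher and 1 lower. CaBP1, a protein disulphide isomerase (1.47 ± 0.21), and Xbp1, the transcription factor of the unfolded protein response (1.53 ± 0.23), held in all 3 fits. The lower one was Hsc70-3, the chaperone BiP (-1.04 ± 0.27), with -0.35 when the length trend was removed. The reticulum chaperone counts were 5 higher and none lower with the length trend removed, and 2 higher and 4 lower with wild-type replicates 4 to 6. The median interaction of the chaperone and translocon list was -0.42 with wild-type replicates 4 to 6, against 0.48 as deposited. All 3 tested COPI coat genes were higher: epsilonCOP (1.66 ± 0.21), deltaCOP (1.07 ± 0.15) and zetaCOP (0.95 ± 0.27). Of these epsilonCOP and deltaCOP held in all 3 fits. The COPI counts were 2 higher and none lower with the length trend removed, and 3 higher and none lower with wild-type replicates 4 to 6. epsilonCOP had 5.94 and 7.75 FPKM in knockdown larvae on high sugar and 0.951 to 1.45 FPKM in knockdown larvae on the control diet, against 1.15 to 1.60 FPKM in wild-type larvae on high sugar and 0.966 to 1.38 FPKM in wild-type larvae on the control diet. The call of zetaCOP was lost without 1 particular library (adjusted p = 0.053, limma). DnaJ-1 lost its call on leaving out any 1 of 9 libraries (adjusted p up to 0.11, limma).

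Protein synthesis and turnover gave the largest lists. Of 84 cytosolic ribosomal protein genes 52 were higher and 6 lower, with a median interaction of 1.08 against 0.06 for all genes. With the length trend removed 34 were higher and 9 lower, 27 were higher and 12 lower with wild-type replicates 4 to 6, and 24 as higher and 6 as lower held in all 3 fits. The median transcript length in this list was 708.5 bases, within the fifth with the shortest transcripts. RpLP2 had 505 and 666 FPKM in knockdown larvae on high sugar and 112 to 171 FPKM in knockdown larvae on the control diet, against 140 to 160 FPKM in wild-type larvae on high sugar and 183 to 236 FPKM in wild-type larvae on the control diet (2.50 ± 0.30, adjusted p = 0.00026, limma). RpL11 (2.09 ± 0.30), RpL36 (2.04 ± 0.24) and RpL38 (1.68 ± 0.22) also held in all 3 fits. Of 13 mitochondrial ribosomal protein genes 7 were higher and none lower, but with the length trend removed 1 was higher and 1 lower. mRpS21 (1.41 ± 0.31) held in all 3 fits. The mitochondrial ribosome counts were 6 higher and 1 lower of the 9 tested with wild-type replicates 4 to 6. Of 33 proteasome genes 17 were higher and 3 lower, and the counts were close in the other fits: 18 were higher and 3 lower with the length trend removed, and 17 and 3 with wild-type replicates 4 to 6. In all 3 fits 16 were higher and 3 lower. Prosbeta5, a catalytic subunit, had 18.5 and 20.2 FPKM in knockdown larvae on high sugar and 2.42 to 5.21 FPKM in knockdown larvae on the control diet, against 3.37 to 3.92 FPKM in wild-type larvae on high sugar and 2.76 to 3.87 FPKM in wild-type larvae on the control diet (2.02 ± 0.31, adjusted p = 0.00078, limma). Prosalpha5 (2.10 ± 0.26) and Pros28_1 (1.91 ± 0.27) were higher and Prosbeta3 lower (-2.22 ± 0.21).

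Of 33 tested translation factors, 3 were higher and 10 lower, and 7 of the lower ones held in all 3 fits. The translation factor counts were 8 higher and 7 lower with the length trend removed, and 4 higher and 11 lower of the 32 tested with wild-type replicates 4 to 6. The list median was 0.10 both as deposited and with the length trend removed. eIF4G, the scaffold of the cap-binding complex, had 0.930 and 0.945 FPKM in knockdown larvae on high sugar and 6.37 to 9.97 FPKM in knockdown larvae on the control diet, against 4.32 to 6.37 FPKM in wild-type larvae on high sugar and 4.88 to 5.53 FPKM in wild-type larvae on the control diet (-2.28 ± 0.26, adjusted p = 0.00022, limma). eIF-4B (-1.91 ± 0.21), the cap-binding protein eIF-4E (-1.57 ± 0.22) and eIF5 (-1.25 ± 0.19) were lower too, and all 4 held in all 3 fits.

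Detoxification, redox and metal genes gave shorter lists. Of 18 glutathione transferase and antioxidant genes 5 were higher and 1 lower. Sod, the cytosolic superoxide dismutase, had 32.1 and 37.8 FPKM in knockdown larvae on high sugar and 7.26 to 13.0 FPKM in knockdown larvae on the control diet, against 12 to 16.3 FPKM in wild-type larvae on high sugar and 16.9 to 18.6 FPKM in wild-type larvae on the control diet (2.06 ± 0.31, adjusted p = 0.00068, limma). GstD1 and Sod as higher and the peroxiredoxin Prx2540-1 as lower (-1.09 ± 0.31) held in all 3 fits; Prx2540-1 has near-identical neighbours between which reads can be split. Sod2, the mitochondrial dismutase, was higher in this fit (0.76 ± 0.23). The transferase and antioxidant counts were 2 higher and 2 lower with the length trend removed, and 4 higher and 3 lower of the 16 tested with wild-type replicates 4 to 6. Of 13 Cyp4 and Cyp6 P450 genes 4 were lower and 1 higher, Cyp4ac1 (-1.69 ± 0.33), Cyp4p1, Cyp4e2 (-0.96 ± 0.28) and Cyp6d5 (-0.63 ± 0.23) being the lower ones, and Cyp4ac1 and Cyp4p1 held in all 3 fits. The P450 counts were 4 higher and 2 lower with the length trend removed, and none higher and 6 lower with wild-type replicates 4 to 6. Of 4 metal genes Fer2LCH, the ferritin light chain, was lower (-1.35 ± 0.24) and held in all 3 fits. The metal gene counts were 1 higher and 1 lower with the length trend removed, and 1 higher and 1 lower with wild-type replicates 4 to 6. Of 7 alcohol and polyol dehydrogenases 3 were higher: Aldh (2.03 ± 0.32), which held in all 3 fits, Sodh-1, a sorbitol dehydrogenase (0.91 ± 0.28), and Fdh, which oxidises formaldehyde (0.82 ± 0.24). The dehydrogenase counts were 3 higher and none lower with the length trend removed, and 1 higher and 2 lower with wild-type replicates 4 to 6. Of 6 genes of methionine and glutamine metabolism Ahcy13 (adenosylhomocysteinase, 1.45 ± 0.27) was higher and M(2)21AB (S-adenosylmethionine synthetase, -1.59 ± 0.42) lower. The methionine and glutamine counts were 2 higher and none lower with the length trend removed, and none higher and 1 lower of the 5 tested with wild-type replicates 4 to 6. The calls of Prx2540-1, Cyp4e2 and Fdh were each lost without 1 particular library (adjusted p of 0.062, 0.071 and 0.075, limma). Sod2 lost its call on leaving out any 1 of 3 libraries (adjusted p up to 0.11, limma). Cyp6d5 lost its call on leaving out any 1 of 8 libraries (adjusted p up to 0.16, limma). Sodh-1 lost its call on leaving out any 1 of 2 libraries (adjusted p up to 0.09, limma).

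**Figure D5:**
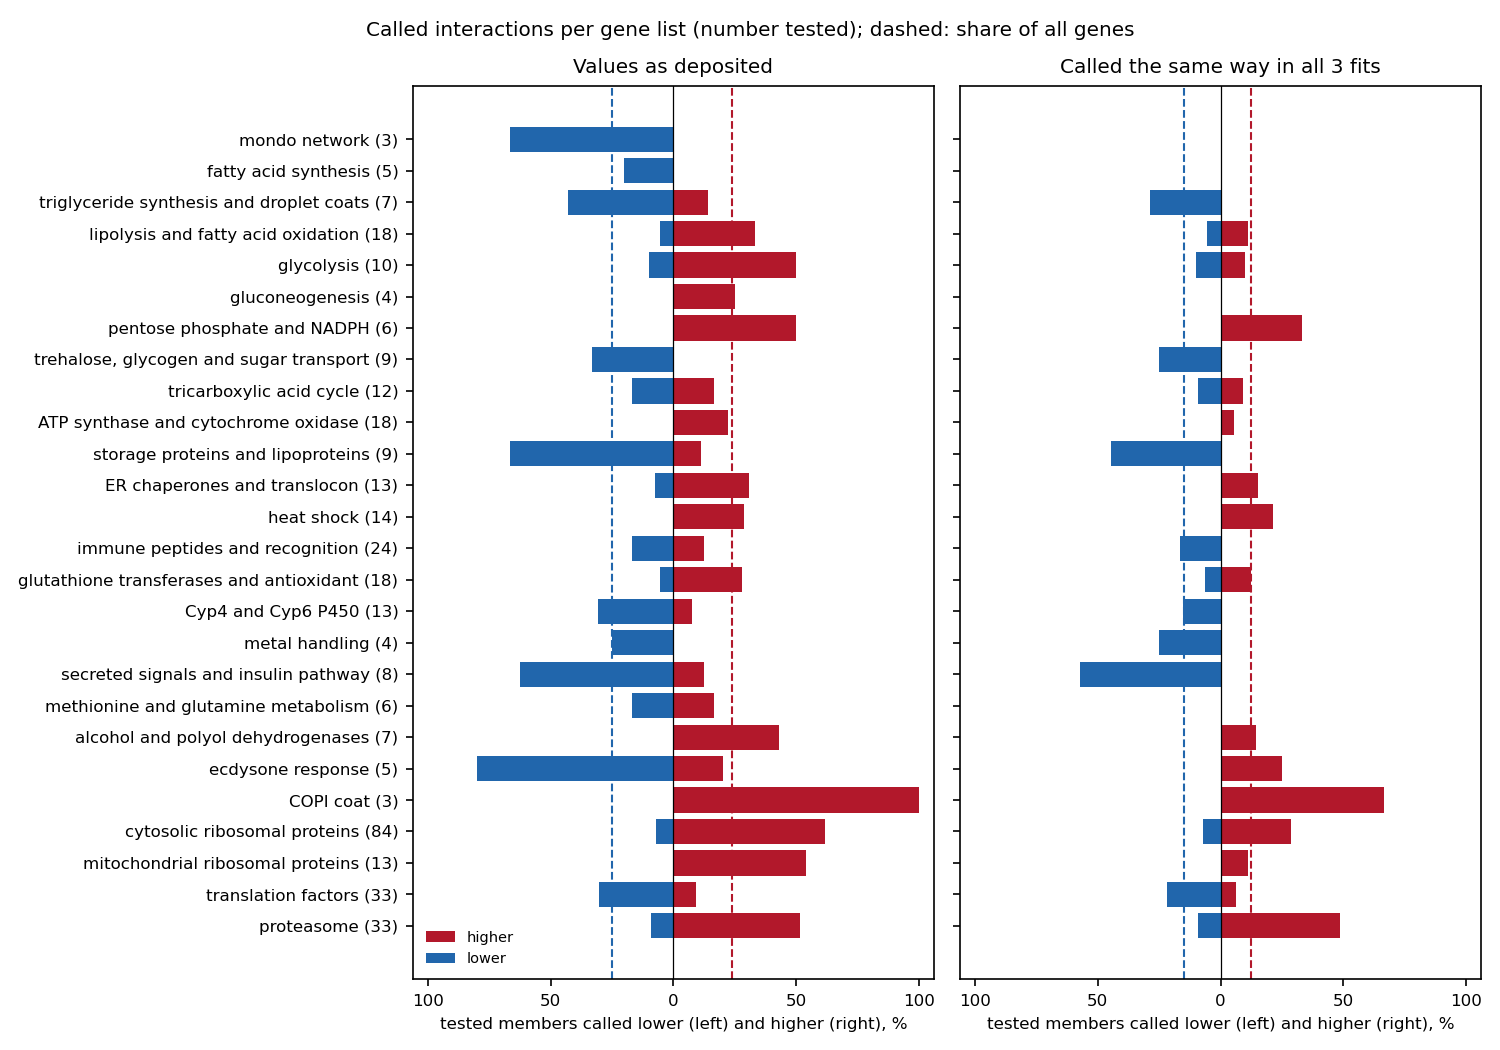
Share of tested members (number in parentheses) with a called interaction, lower to the left and higher to the right, for the gene lists with at least 3 tested members, with values as deposited (left panel) and in all 3 fits (right panel, as a share of members tested in all 3). Dashed lines give the share of all genes, 23.8% higher and 25.0% lower in the left panel and 12.5% and 14.7% in the right one. Several lists stay above a line in both panels. Among them are proteasome and cytosolic ribosomal protein genes for higher, and storage proteins, secreted signals and translation factors for lower.

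Markers of the fat body, midgut, cuticle and muscle included called interactions, whereas no tested hemocyte, tubule or neuronal marker was called. None of the 7 fat body markers was at 0 throughout any group, and their summed level was 2370 to 2730 FPKM in knockdown larvae on high sugar and 7800 to 9170 FPKM in knockdown larvae on the control diet, against 6900 to 8380 FPKM in wild-type larvae on high sugar and 8340 to 9570 FPKM in wild-type larvae on the control diet. Of these 7, 5 had a called lower interaction. The fat body marker counts were none higher and 4 lower with the length trend removed, and none higher and 7 lower with wild-type replicates 4 to 6. Of 14 tested midgut genes 5 were higher and none lower. The midgut gene counts were 5 higher and none lower with the length trend removed, and 12 higher and none lower with wild-type replicates 4 to 6. The median interaction of the midgut list was 3.19 with wild-type replicates 4 to 6, against 1.23 as deposited. Jon25Biii, a digestive protease of the Jonah family, had 19.6 and 26.3 FPKM in knockdown larvae on high sugar and 0.412 to 1.02 FPKM in knockdown larvae on the control diet, against 0.177 to 0.455 FPKM in wild-type larvae on high sugar and 0.335 to 0.831 FPKM in wild-type larvae on the control diet (4.03 ± 0.27, adjusted p = 3.2e-05, limma). Jon66Ci (3.44 ± 0.28), Jon99Cii (3.16 ± 0.48) and Jon99Ciii (3.08 ± 0.44) behaved alike, the last pair being close copies. The summed level of the 24 midgut markers was 289 to 396 FPKM in knockdown larvae on high sugar and 69.4 to 122 FPKM in knockdown larvae on the control diet, against 18.1 to 134 FPKM in wild-type larvae on high sugar and 13.1 to 104 FPKM in wild-type larvae on the control diet, with 0, 7, 4 and 3 of the 24 at 0 in every library of the group.

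Cuticle genes were called higher in 7 of 10 tested and lower in 1, and Lcp65Ab1 (3.35 ± 0.45) and its near-identical neighbour Lcp65Ab2 (3.33 ± 0.45) count as 1 observation. The cuticle gene counts were 6 higher and 1 lower with the length trend removed, and 6 higher and 1 lower of the 9 tested with wild-type replicates 4 to 6. The summed level of all 85 cuticle genes was nevertheless 130 to 225 FPKM in knockdown larvae on high sugar and 236 to 316 FPKM in knockdown larvae on the control diet, against 248 to 350 FPKM in wild-type larvae on high sugar and 323 to 362 FPKM in wild-type larvae on the control diet, and Cpr49Ac, with a mean of 26.6 FPKM in knockdown larvae on high sugar and 249 FPKM in wild-type larvae on the control diet, made up much of it in wild type. At 0 in every library of the group were 64, 71, 68 and 57 of the 85, in the same order of groups. Of 5 muscle genes 3 were higher: Mlc2, a myosin light chain (2.62 ± 0.28), the actin Act57B (1.21 ± 0.32) and the troponin gene wupA (1.0 ± 0.30). The muscle gene counts were 3 higher and none lower with the length trend removed, and 2 higher and none lower of the 4 tested with wild-type replicates 4 to 6. The summed muscle level was 14.6 to 22.6 FPKM in knockdown larvae on high sugar and 10.1 to 12.7 FPKM in knockdown larvae on the control diet, against 8.95 to 11.2 FPKM in wild-type larvae on high sugar and 14.3 to 20.3 FPKM in wild-type larvae on the control diet. The hemocyte genes He (0.57 ± 0.22, adjusted p = 0.051, limma) and Nplp2 (2.21 ± 1.13, adjusted p = 0.13, limma), the tubule gene Uro (-0.05 ± 0.57, adjusted p = 0.95, limma) and the neuronal gene Syt1 (0.59 ± 0.29, adjusted p = 0.11, limma) were not called. The summed level of the 9 hemocyte markers was 195 to 447 FPKM in knockdown larvae on high sugar and 104 to 304 FPKM in knockdown larvae on the control diet, against 22.2 to 50.5 FPKM in wild-type larvae on high sugar and 46.6 to 317 FPKM in wild-type larvae on the control diet. No gonad marker reached the level for testing. The part of other tissues in the interactions was not tested, and in these whole-tissue samples fewer cells of a type and less RNA per cell cannot be told apart.
 The calls of Act57B and wupA were each lost without 1 particular library (adjusted p of 0.057 and 0.095, limma).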

How the data were processed

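RNA was sequenced from 17 fat body libraries, and 11 entered the interaction. The deposited matrix holds FPKM values, a unit the header does not name; per the submitters' processing notes the authors used TopHat 1.3.2, Bowtie 0.12.7 and Cufflinks 1.1.0 with genome build dm3, and further scaling is not given in the sources used here. Read depth is unknown: libraries summed to 44732.1 to 62263.5 FPKM over the matrix, with 7207 to 8360 genes above 0. Values were analysed as log2(FPKM + 1), which understates changes of low genes, for genes with a mean of at least 1 over the 11 libraries. A model with 1 mean per group was fitted to all such genes with limma 3.58.1 in R 4.3.3 (trend and robust moderation, 2-sided, Benjamini-Hochberg adjustment, threshold 0.05), and was tested on simulated data. Length trends were removed per library by loess (span 0.5) on transcript length, known for 2393 tested genes. Current symbols were matched for 13055 of 14659 rows from RefSeq, and lengths came from a later annotation than dm3. The labels call the libraries biological replicates without saying how larvae were pooled.

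Named genes were dmondo and bigmax, the 12 lowest and 12 highest called interactions with a mean of at least 5, up to 10 rises and 10 falls with sugar in wild type with a called interaction of opposite sign and a mean of at least 5, and up to 4 members of each gene list with the smallest p. Other names were picked with their values in view. The comparison, the lists and the rule were chosen with earlier results of these data known. Alternatives tried were the pseudocount, the filter, 2 scalings, the length trend, a replicate block, a fit of all 17 libraries, the moderation and leaving out each library. The fit with wild-type replicates 4 to 6 in place of 1 to 3, and quantile normalization together with length, were added after seeing the data.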

Additional observations from a re-analysis of the deposited data

Results flagged for a closer look

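Of the 55 genes with a called sugar effect in both genotypes, 8 had effects of opposite sign, together with a called interaction. High sugar raised 3 of them in wild type and lowered them in knockdown, with interactions of -1.61 for Cyp4p1, -1.41 for CG15553 and -1.19 for Acon. The interaction of Acon was not called lower with the length trend removed. High sugar lowered the other 5 in wild type and raised them in knockdown, with interactions of 1.19 for CG30000, 1.26 for CG17218, 2.62 for Mlc2, 3.33 for Lcp65Ab2 and 3.35 for Lcp65Ab1. The last pair are near-identical neighbours and count as 1 observation.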

How the results depend on the processing

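Counts of called genes (limma, adjusted p under 0.05) moved with the filter. Without the filter on mean level the interaction was called for 2823 of 9006 genes, the sugar effect in knockdown for 3955 and the knockdown effect on high sugar for 3984; with a minimum mean of 5 these counts were 415, 535 and 507 of 800 genes, and that of the knockdown effect on the control diet was 82. The median interaction was then 0.311. The sugar effect in wild type was called for 370 genes with all 17 libraries, for 717 with replicates 4 to 6 in place of 1 to 3, and for 47 with the replicate block and the length trend removed. Under quantile normalization its calls were 30 higher and 51 lower, against 21 and 57 as deposited, and in replicates 4 to 6 they were 423 and 337, against 574 and 253. Without single libraries the calls ranged from 919 to 1265 for the interaction, 26 to 109 for sugar in wild type, 77 to 161 for the knockdown effect on the control diet and 554 to 750 for sugar in wild-type replicates 4 to 6. With the replicate block 1156 interactions were called, and 871 with the length trend removed as well. Replicate numbers gave no clear sign of pairing the libraries. Deviations from group means of same-numbered libraries correlated at -0.239 to 0.221, with 5 of 15 pairs over 0.1. Those of other pairs correlated at -0.379 to 0.336, with 8 of 30 over 0.1. Because the deviations of the 2 knockdown high-sugar libraries mirror each other, these correlations cannot settle the pairing. Of 124 named genes with a called interaction, 57 lost the call and 15 turned sign under some alternative. The cause was not tested.

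With the length trend removed, the sign turned for dmondo (0.27), CG3348 (-0.09), Gpdh (0.04), Cg25C (1.13), HLH106 (0.55), CG3523 (0.98), ATPCL (0.43), CG5508 (0.09), CG10924 (0.14), CG1516 (0.80), EcR (0.40) and Eip74EF (0.45). With the replicate block and the length trend removed, it turned for dmondo (0.27), CG3348 (-0.09), Cg25C (1.07), HLH106 (0.56), CG3523 (0.85), ATPCL (0.35), CG5508 (0.08), CG10924 (0.20), CG1516 (0.77), EcR (0.35) and Eip74EF (0.47). With quantile normalization and the length trend removed, it turned for dmondo (0.38), daw (0.05), CG31775 (-0.07), CG3348 (-0.19), Cg25C (1.1), HLH106 (0.61), CG3523 (0.92), ATPCL (0.49), CG5508 (0.15), CG1516 (0.60), Treh (0.03), EcR (0.49) and Eip74EF (0.46). With wild-type replicates 4 to 6 in place of 1 to 3, it turned for CG31775 (-0.81), PHGPx (-0.03), CG7224 (-0.21), CG3348 (-0.26), CG42586 (-0.83), CG5773 (-0.15), Sgs3 (0.11), Sgs4 (0.11), desat1 (-0.87), Gapdh1 (-0.14), Eno (-0.14), fbp (-0.55), Nplp2 (-0.17) and Uro (2.05). With all 17 libraries and a barcode layout term, it turned for CG31775 (-0.09), CG42586 (-0.12), desat1 (-0.10) and Uro (1.00). With quantile normalization alone, it turned for Cg25C (0.05). With a pseudocount of 0.1, it turned for Gpdh (0.21). Without single libraries, Gpdh ranged from -0.45 to 0.09, Cg25C from -0.30 to 0.20, CG1516 from -0.36 to 0.01 and Uro from -0.39 to 0.40. Depth is unknown, so no counting limit can be given for genes near 0.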
